A study of Mus musculus with 8 samples.

Results

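The autophagy and mitophagy machinery was examined in skeletal muscle of mice lacking LSD1 (lysine-specific demethylase 1, encoded by Kdm1a) in myofibers. It was taken as 48 genes chosen by symbol and ordered by step, out of 27041 genes in the count table. There were 5 genes of initiation, 6 of nucleation, 5 of membrane delivery, 13 of conjugation, 4 cargo receptors, 9 genes of mitophagy and 6 of the lysosome. All 48 had a mean above 50 counts over the libraries and were among the 11364 genes tested.

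Poly(A) RNA was sequenced from muscle of 9-week-old male C57BL/6J mice, and the study names the muscle as the gastrocnemius. Ctrl mice carried floxed Kdm1a alleles (LSD1 L2/L2) and no Cre. LSD1skm-/- mice carried the same floxed alleles and HSA-Cre, a transgene driven by the human skeletal actin promoter that is active in myofibers, so that other cells of the muscle keep the gene. Each group had 4 labelled libraries, of which 4 Ctrl and 2 LSD1skm-/- were analysed here. No label says whether the libraries of a group came from separate mice, so p-values measure the spread between these libraries.

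In autophagy, the ULK1 kinase complex starts the process and a class III phosphatidylinositol 3-kinase complex marks the site where the membrane forms. Lipid carriers and conjugation enzymes then extend it and attach LC3 and GABARAP proteins, the mammalian Atg8 family, to it. Cargo receptors tie ubiquitinated proteins or mitochondria to those proteins, and lysosomal proteases degrade the content after fusion. In muscle this route removes damaged mitochondria and supplies amino acids in fasting, and its genes are among those induced in atrophy.

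The targeted gene was read first, in CPM, the counts of a gene relative to the library's total and scaled by TMM (trimmed mean of M-values). Kdm1a stood at 22.9, 22.0 and 28.1 CPM in Ctrl replicates 1 to 3 and at 2.96 and 3.48 CPM in the LSD1skm-/- libraries. The library labelled Ctrl replicate 4 had 3.66 CPM, close to the LSD1skm-/- libraries and against its label. The log2 fold change of Kdm1a was -2.56 ± 0.74 (SE, adjusted p = 0.557, edgeR) with all 6 libraries and -2.91 ± 0.17 (adjusted p = 0.000579) without it. Fold changes are therefore given with all 6 libraries and without that one. Over all 11364 genes, edgeR's quasi-likelihood test gave an unadjusted p under 0.05 for 1011 genes (8.9%) and a Benjamini-Hochberg adjusted p under 0.05 for 0 (0%) with all 6 libraries, while DESeq2 gave the latter for 46 (0.405%). Without the library labelled Ctrl replicate 4 these were 2292 genes (20.2%) and 612 genes (5.39%), of which 496 were higher (4.36%) and 116 lower (1.02%) in LSD1skm-/-. That library was nearer to the LSD1skm-/- mean than to the mean of the other Ctrl libraries for 6904 genes (60.8%), and for 32 of the 48 autophagy genes (66.7%). Total counts ran from 30654828 to 41278769 per library.

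The tissue carried the markers of fast muscle. The 10 fast-twitch genes summed to 187971 to 209310 CPM in Ctrl replicates 1 to 3. Their sum was 173697 CPM in the library labelled Ctrl replicate 4, and 173763 and 183987 CPM in LSD1skm-/-. Of the 10, 1 (Myh4) was lower at an unadjusted p under 0.05 by edgeR, both with all 6 libraries and without that one. Its log2 fold changes were -0.42 (adjusted p = 0.557, edgeR) and -0.52 (adjusted p = 0.0662, edgeR). In bulk muscle, fewer cells of a type and less RNA per cell cannot be told apart. The summed CPM of 9 fibroblast markers was 487 to 529 in Ctrl replicates 1 to 3, 778 in the library labelled Ctrl replicate 4, and 672 and 798 in LSD1skm-/-. The 5 blood markers summed to 28.2 to 43.7 CPM in Ctrl replicates 1 to 3, 52.2 CPM in the library labelled replicate 4, and 64.1 and 65.8 CPM in LSD1skm-/-. The 4 satellite cell markers summed to 22.5 to 27.1 CPM in Ctrl replicates 1 to 3, 32.2 CPM in the library labelled replicate 4, and 33.1 and 32.1 CPM in LSD1skm-/-. The sum of the 12 macrophage markers overlapped between groups, at 54.4 to 121 CPM in Ctrl and 82.7 and 132 CPM in LSD1skm-/-. Single markers differed from the sum. Without the library labelled Ctrl replicate 4, every tested macrophage marker except Lyz2 and Ptprc had a positive estimate. Of the 10 tested, 1 (Adgre1) had an unadjusted p under 0.05 by edgeR, against 20.2% of all genes. The 8 slow-twitch markers summed to 1142 to 2240 CPM in Ctrl and to 521 and 914 CPM in LSD1skm-/-. Without the library labelled Ctrl replicate 4, 8 of 9 fibroblast, 5 of 5 blood and 3 of 4 satellite cell markers were higher and 7 of 8 slow-twitch markers lower at an unadjusted p under 0.05 by edgeR, of which 2, 2, 0 and 1 passed the adjusted threshold. Adipoq, an adipocyte marker, was at 12.8, 9.70 and 19.6 CPM in Ctrl replicates 1, 2 and 4, at 0.783 CPM in Ctrl replicate 3 and at 0.126 and 0.558 CPM in LSD1skm-/-. Of 6 adipocyte markers tested, 5 were lower at an unadjusted p under 0.05 by edgeR without that library, and Plin4 was not. The sum of all 8 overlapped, at 388 to 573 CPM in Ctrl and 412 and 403 CPM in LSD1skm-/-. The 8 endothelial markers summed to 211 to 277 CPM in Ctrl and to 189 and 194 CPM in LSD1skm-/-, with 2 of 8 lower by the same test. The 6 Schwann cell markers summed to 119, 45.1, 102 and 159 CPM in Ctrl replicates 1 to 4 and to 54.8 and 92.7 CPM in LSD1skm-/-, so the groups overlapped. Of the 4 tested, 0 had an unadjusted p under 0.05 by edgeR with all 6 libraries or without the library labelled Ctrl replicate 4. No marker of the fibroblast, blood, satellite cell, macrophage, slow-twitch, adipocyte, endothelial or Schwann lists was at 0 in all libraries. The part of these cell types in the results that follow was not tested.

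Map1lc3a and Ctsb were higher in LSD1skm-/- muscle at an adjusted p under 0.05 by edgeR in the 5 libraries other than that labelled Ctrl replicate 4. Map1lc3a, which encodes LC3A, a protein that is attached to the autophagosome membrane, was 1.74-fold of Ctrl. Ctsb, which encodes the lysosomal protease cathepsin B, was 1.43-fold of Ctrl. Both depended on the setting. Ctsb did not pass with DESeq2's size factors in place of TMM (adjusted p = 0.0514, edgeR) or with any further Ctrl library left out. The log2 fold change of Map1lc3a fell from 0.80 to 0.61 when LSD1skm-/- replicate 2 was left out as well. With all 6 libraries 0 of the 48 passed an adjusted p of 0.05 by edgeR's quasi-likelihood test, 2 had an unadjusted p under 0.05 (Map1lc3a higher and Uvrag lower), and DESeq2 also gave 0 at an adjusted p of 0.05. Without the library labelled Ctrl replicate 4, 2 of 48 passed the adjusted threshold by edgeR, against 5.39% of all genes. An unadjusted p under 0.05 was found for 8 of 48, against 20.2% of all genes. In those 5 libraries DESeq2 gave 6 of 48 at the adjusted threshold, against 1056 of all 11364 genes (9.29%), namely Map1lc3a and Ctsb higher and Sqstm1, Optn, Tax1bp1 and Mfn2 lower. At an unadjusted p under 0.05 with a fold above 1.3 or below 0.77, the cutoffs of the study's methods, 1 of the 48 was counted with all 6 libraries, against 717 of all genes (6.31%), and 5 without the library labelled Ctrl replicate 4, against 1724 (15.2%).

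Most of the estimates lay a little below 0. The log2 fold change of LSD1skm-/- against Ctrl was negative for 35 of the 48 genes with a median of -0.10 with all 6 libraries, beside a median of -0.01 over all genes tested. Without the library labelled Ctrl replicate 4 it was negative for 38 with a median of -0.13, beside -0.01. The 109 other genes of the same routes, given at the end, had 53 positive and 56 negative estimates and a median of -0.00099 with all 6 libraries, and 49 positive and 60 negative and a median of -0.02 without that library. Scaling by library size alone turned the sign of 4 genes in the first comparison and of 9 in the second, all with estimates near 0.

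**Figure D1:**
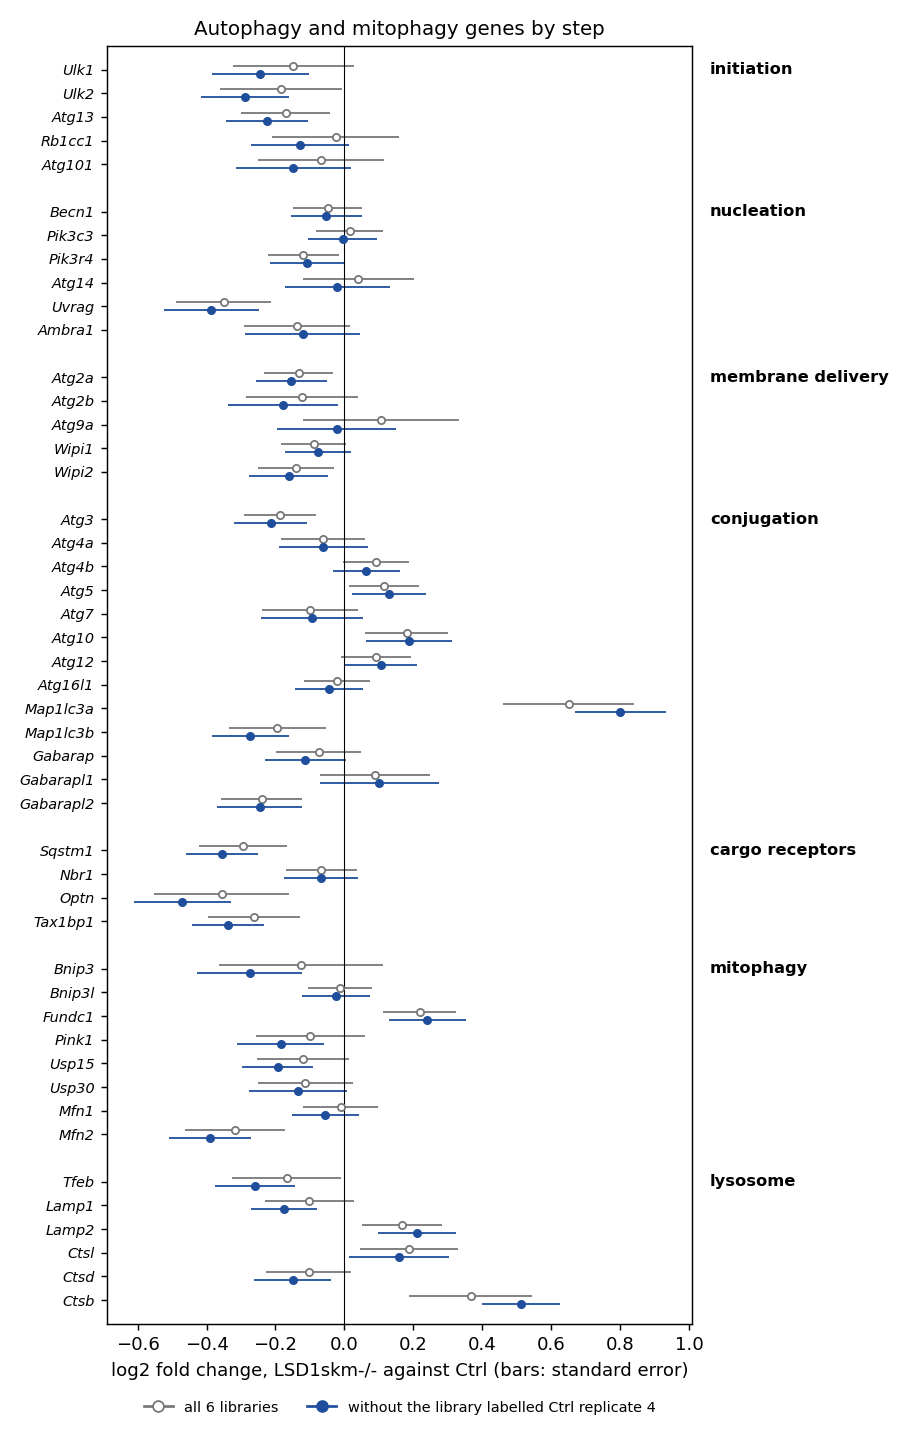
Log2 fold change (x axis, log2 units) of 47 of the 48 genes in LSD1skm-/- against Ctrl, grouped by step, with points for the estimate and bars for its standard error. Open grey points use all 6 libraries and filled blue points leave out the library labelled Ctrl replicate 4. Map1lc3a lies farthest to the right at 0.65 and 0.80, and Optn farthest to the left at -0.36 and -0.47.

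The initiation genes encode the ULK1 complex. The kinase genes Ulk1 and Ulk2 and the scaffold genes Atg13, Rb1cc1 (FIP200) and Atg101 had log2 fold changes from -0.18 to -0.03 with all 6 libraries and from -0.29 to -0.13 without the library labelled Ctrl replicate 4, and 0 of 5 had an unadjusted p under 0.05 by edgeR's quasi-likelihood test in either comparison. Rb1cc1 turned positive with all 6 libraries when scaled by library size. Ulk2 was at 138, 166, 164 and 112 CPM in Ctrl replicates 1 to 4 and at 138 and 117 CPM in LSD1skm-/-. Its LSD1skm-/- values fell within the Ctrl range set by the library labelled replicate 4 and below the other Ctrl values. The gap was very small between LSD1skm-/- replicate 1 (138.0 CPM) and Ctrl replicate 1 (138.5 CPM). The log2 fold change of Ulk2 was -0.18 ± 0.18 (SE, adjusted p = 0.740, edgeR) with all 6 libraries and -0.29 ± 0.13 (adjusted p = 0.267, edgeR) without that library. Per kilobase of transcript, Atg101 had the highest level of the step, at 26.3 CPM in Ctrl, just above Ulk2 at 25.2 CPM.

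The nucleation genes belong to the lipid kinase complex, with Pik3c3 as its catalytic subunit and Pik3r4 as its regulatory subunit. Becn1, the scaffold Beclin 1, was at 64.6, 71.8, 63.5 and 65.6 CPM in Ctrl and at 61.6 and 66.8 CPM in LSD1skm-/-, and the groups overlapped. Its log2 fold change was -0.05 ± 0.10 (SE, adjusted p = 0.883, edgeR) with all 6 libraries and -0.05 ± 0.10 (adjusted p = 0.821) without the library labelled Ctrl replicate 4. Becn1 shares 45.7% of its 50-base words with other genes in either strand, largely with Cntd1, which overlaps it on the opposite strand, and whether the counting used strand is not given in the sources used here.

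Uvrag, which encodes a Beclin 1 partner that acts in autophagosome maturation and endosomal traffic, was the gene of this step with the lowest estimate. Uvrag was at 13.3, 11.03, 13.7 and 11.4 CPM in Ctrl replicates 1 to 4 and at 10.0 and 9.39 CPM in LSD1skm-/-. Both LSD1skm-/- values lay below all 4 Ctrl values, though the gap to Ctrl replicate 2 was small. On the log2 scale the fold change was -0.35 ± 0.14 (SE, adjusted p = 0.557, edgeR) with all 6 libraries and -0.39 ± 0.14 (adjusted p = 0.174) without the library labelled Ctrl replicate 4. Its unadjusted p did not stay under 0.05 when Ctrl replicate 1, Ctrl replicate 3 or either LSD1skm-/- library was left out. The other 5 nucleation genes, among them Atg14, which directs the complex to the autophagosome, and Ambra1, a Beclin 1 regulator, lay between -0.14 and 0.04 with all 6 libraries. Without the library labelled Ctrl replicate 4 all 6 estimates were negative, of which scaling by library size turned Becn1, Pik3c3 and Atg14 positive. Becn1 had the highest level per kilobase, at 15.2 CPM in Ctrl.

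Membrane delivery covers Atg2a and Atg2b, which carry lipid to the growing membrane, Atg9a, a scramblase on the vesicles that seed it, and Wipi1 and Wipi2, which bind its phosphoinositide. Their log2 fold changes ran from -0.14 to 0.11 with all 6 libraries and from -0.18 to -0.02 without the library labelled Ctrl replicate 4, where Atg9a turned positive when scaled by library size. By edgeR's quasi-likelihood test, 0 of 5 had an unadjusted p under 0.05 in either comparison. Atg9a varied most within a group, from 35.6 to 60.7 CPM in Ctrl with 61.0 and 46.1 CPM in LSD1skm-/-. It shares 43.9% of its 50-base words with other genes, largely with Gm29253, which overlaps it on the same strand, so its level is uncertain. Wipi1 had the highest level per kilobase, at 33.6 CPM in Ctrl.

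Among the 13 conjugation genes the estimates were split, with 6 positive and 7 negative in both comparisons, and Map1lc3a stood apart from the rest. Scaling by library size turned Atg16l1 positive in both and Atg4a in the second. Map1lc3a lies on chromosome 2 (GRCm38, 155276297 to 155278073, plus strand). Map1lc3a was at 231, 214 and 199 CPM in Ctrl replicates 1 to 3, at 307 CPM in the library labelled Ctrl replicate 4, and at 327 and 419 CPM in LSD1skm-/-. Both LSD1skm-/- values were above all 4 Ctrl values, and the library labelled Ctrl replicate 4 was closer to LSD1skm-/- replicate 1 than to any other Ctrl library. Its log2 fold change was 0.65 ± 0.19 (SE, adjusted p = 0.557, edgeR) with all 6 libraries and 0.80 ± 0.13 (adjusted p = 0.0164, edgeR) without that library. LSD1skm-/- replicate 2 carried much of the size, since leaving it out gave 0.46 with all 6 libraries, and 0.61 with an adjusted p of 0.107 (edgeR) without the library labelled Ctrl replicate 4 as well.

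Map1lc3b, which encodes LC3B, had estimates below 0 that did not pass the adjusted threshold. Map1lc3b was at 84.5, 81.7 and 96.6 CPM in Ctrl replicates 1 to 3, at 68.8 CPM in the library labelled Ctrl replicate 4, and at 70.1 and 74.8 CPM in LSD1skm-/-. The LSD1skm-/- values lay below Ctrl replicates 1 to 3 and just above the library labelled replicate 4. Its log2 fold change was -0.19 ± 0.14 (SE, adjusted p = 0.664, edgeR) with all 6 libraries and -0.27 ± 0.11 (adjusted p = 0.231) without that library. Some of its reads may not be told apart from those of other genes, since 13.8% of its 50-base words occur elsewhere, whereas 0% of those of Map1lc3a do.

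The GABARAP branch, whose proteins act mainly late in autophagosome maturation, overlapped between groups except for Gabarapl2. Gabarap ranged from 113 to 136 CPM in Ctrl and was 106 and 128 CPM in LSD1skm-/-, with a log2 fold change of -0.07 with all 6 libraries and -0.11 without the library labelled Ctrl replicate 4. Gabarapl1 was at 62.0, 49.8, 67.5 and 61.5 CPM in Ctrl and at 73.2 and 54.8 CPM in LSD1skm-/-, a log2 fold change of 0.09 ± 0.16 (SE, adjusted p = 0.863, edgeR) with all 6 libraries and 0.10 ± 0.17 (adjusted p = 0.791) without the library labelled Ctrl replicate 4. Gabarapl2 was between 13.9 and 14.5 CPM in the 4 Ctrl libraries and at 10.8 and 13.1 CPM in LSD1skm-/-, with a log2 fold change of -0.24 ± 0.12 (SE, adjusted p = 0.566, edgeR) and of -0.25 ± 0.12 (adjusted p = 0.327) without that library. The 2 LSD1skm-/- libraries differed from each other in Gabarapl2 by more than the Ctrl libraries did.

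Per kilobase of transcript, which allows levels to be compared between genes, Map1lc3a was the most abundant of the 5 family members in every library. Its level was 214 CPM per kilobase as the mean of the 4 Ctrl libraries, 193 as the mean of Ctrl replicates 1 to 3, and 336 in LSD1skm-/-, and Gabarap came next at 91.2 over the 4 Ctrl libraries. Map1lc3a made up 54.1%, 54.8% and 50.7% of the summed family level in Ctrl replicates 1 to 3, 64.4% in the library labelled Ctrl replicate 4, and 65.8% and 69.9% in LSD1skm-/-. The ratio of Map1lc3a to Map1lc3b was 6.22, 5.97 and 4.69 in Ctrl replicates 1 to 3, 10.2 in the library labelled Ctrl replicate 4, and 10.6 and 12.8 in LSD1skm-/-. The share and the ratio were thus above those of Ctrl replicates 1 to 3 in both LSD1skm-/- libraries and in the library labelled Ctrl replicate 4. Both are descriptions of these libraries with no test. The transcript length of a gene is that of its longest coding transcript tagged as principal, or of its longest coding transcript where none is tagged. Another length would rescale a gene in all libraries alike and would shift the shares and ratios. Whether isoform use differed between libraries was not examined.

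**Figure D2:**
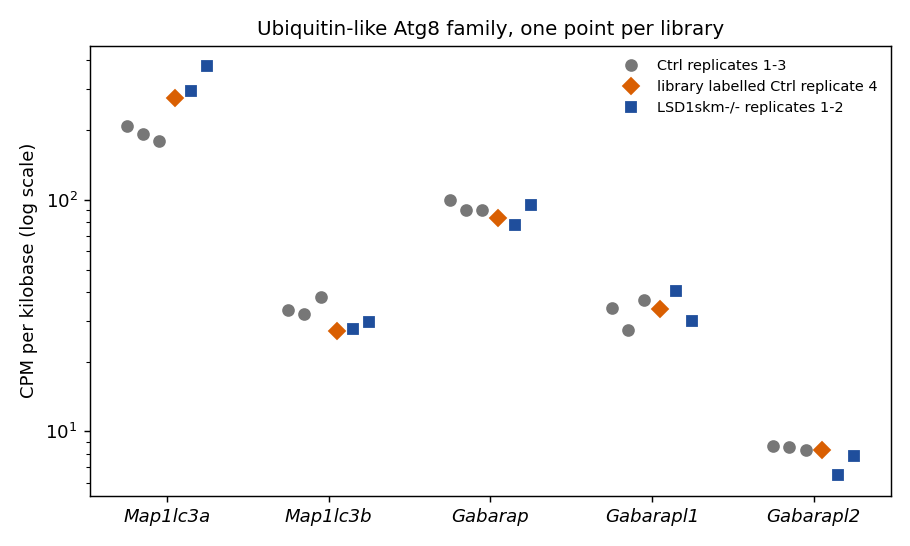
Levels of the 5 Atg8 family genes in CPM per kilobase of transcript (y axis, log scale), with a point for each library, grey circles for Ctrl replicates 1 to 3, an orange diamond for the library labelled Ctrl replicate 4 and blue squares for LSD1skm-/-. Map1lc3a is the highest in every library and is higher in both LSD1skm-/- libraries than in the 4 Ctrl libraries.

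The enzymes that attach these proteins had estimates near 0. Atg7, the activating enzyme, Atg3, the conjugating enzyme, the proteases Atg4a and Atg4b, and the Atg12, Atg5, Atg16l1 and Atg10 genes of the second conjugation system had log2 fold changes between -0.19 and 0.18 with all 6 libraries, and between -0.21 and 0.19 without the library labelled Ctrl replicate 4. By edgeR's quasi-likelihood test 0 of these 8 had an unadjusted p under 0.05 in either comparison. Atg3 was at 26.3 to 30.0 CPM in the 4 Ctrl libraries and at 23.9 and 25.1 CPM in LSD1skm-/-, with no overlap, and Atg5 was at 12.9 to 13.9 CPM in Ctrl and at 14.3 and 14.7 CPM in LSD1skm-/-, also with no overlap. Such separation is common here, since 17.8% of all genes tested did not overlap between the 4 Ctrl and the 2 LSD1skm-/- libraries. Of the 48 genes, 4 lay wholly above and 8 wholly below the Ctrl libraries. These were 6 and 17 of the 48, and 37.7% of all genes, without the library labelled Ctrl replicate 4. Atg4a shares 63.6% of its 50-base words with other genes, so its level is uncertain.

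The cargo receptors had the lowest median of the 7 steps. It was -0.28 on the log2 scale with all 6 libraries and -0.35 without the library labelled Ctrl replicate 4, against -0.01 over all genes in both comparisons. In the first comparison 0 of 4 had an unadjusted p under 0.05 (0 adjusted) by edgeR's quasi-likelihood test, with 1 of 4, Sqstm1, under it by DESeq2. In the second 3 of 4 did, against 20.2% of all genes, with 0 past the adjusted threshold by edgeR and 3 by DESeq2, against 9.29% of all genes. The 5 other genes listed under this step, Wdfy3, Calcoco1, Tollip, Tbk1 and Fyco1, are not all receptors themselves. They had medians of 0.01 and -0.11, and 0 of 5 had an unadjusted p under 0.05 by edgeR in either comparison.

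Sqstm1 encodes p62, the receptor for ubiquitinated protein aggregates. Sqstm1 was at 632, 611, 687 and 533 CPM in Ctrl replicates 1 to 4 and at 515 and 489 CPM in LSD1skm-/-. Both LSD1skm-/- values were below all 4 Ctrl values, and the library labelled Ctrl replicate 4 was the lowest of Ctrl. Against Ctrl the log2 fold change was -0.29 ± 0.13 (SE, adjusted p = 0.557, edgeR) and, without that library, -0.36 ± 0.11 (adjusted p = 0.112).

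Optn encodes optineurin, a receptor for ubiquitin on damaged mitochondria, and had the lowest estimate of all 48 genes in both comparisons. Optn was at 153, 132, 142 and 98.1 CPM in Ctrl replicates 1 to 4 and at 116 and 89.2 CPM in LSD1skm-/-. LSD1skm-/- lay below Ctrl replicates 1 to 3, and the library labelled Ctrl replicate 4 lay between the LSD1skm-/- libraries. The fitted log2 fold change was -0.36 ± 0.20 (SE, adjusted p = 0.591, edgeR) and, without that library, -0.47 ± 0.14 (adjusted p = 0.113).

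Tax1bp1 encodes a ubiquitin-binding receptor of the same group. Tax1bp1 was at 103, 98.2, 101 and 79.9 CPM in Ctrl replicates 1 to 4 and at 84.9 and 74.2 CPM in LSD1skm-/-. As with Optn, the library labelled Ctrl replicate 4 fell between the LSD1skm-/- libraries and the other Ctrl libraries stood above both. The log2 fold change was -0.26 ± 0.13 (SE, adjusted p = 0.569, edgeR) and, without that library, -0.34 ± 0.10 (adjusted p = 0.121).

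Nbr1, a receptor that works beside p62, differed from the other receptors in that its groups overlapped in both comparisons. Nbr1 was at 86.1, 91.4, 99.3 and 91.5 CPM in Ctrl and at 91.5 and 84.3 CPM in LSD1skm-/-, with a log2 fold change of -0.07 ± 0.10 (SE, adjusted p = 0.840, edgeR) and of -0.07 ± 0.11 (adjusted p = 0.772) without the library labelled Ctrl replicate 4, which scaling by library size turned positive. Sqstm1 had the highest level per kilobase not only of this step but of all 48 genes in Ctrl, at 302 CPM.

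**Figure D3:**
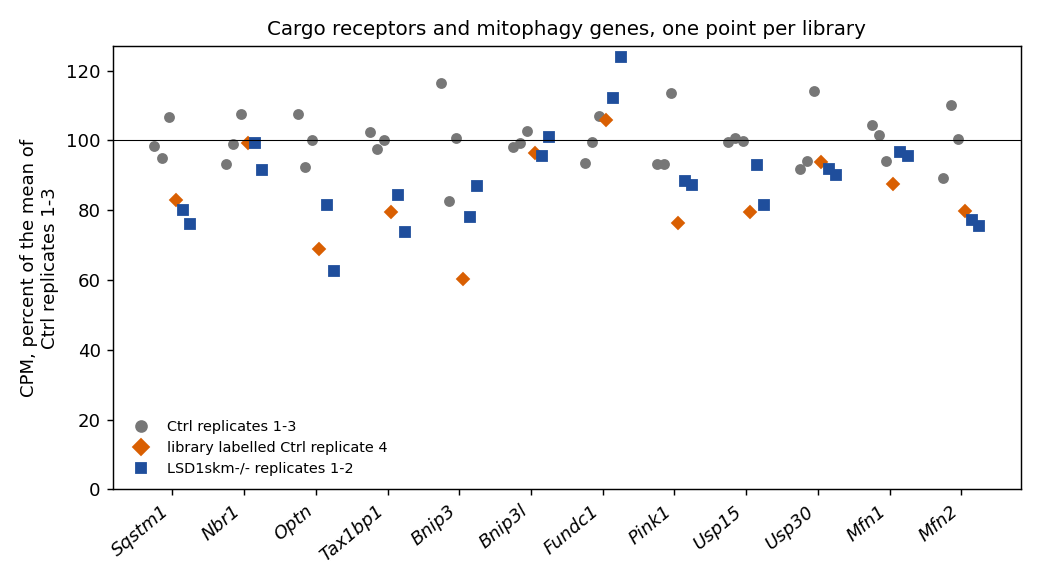
CPM of the 4 cargo receptor genes and 8 of the mitophagy genes as a percentage of the mean of Ctrl replicates 1 to 3 (y axis, percent), with a point for each library, grey circles for Ctrl replicates 1 to 3, an orange diamond for the library labelled Ctrl replicate 4 and blue squares for LSD1skm-/-. Sqstm1 stands at 80.0% and 76.1% in LSD1skm-/- and Mfn2 at 77.1% and 75.3%, with the library labelled Ctrl replicate 4 close to them at 82.8% and 79.8%.

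The mitophagy genes gave 8 negative and 1 positive estimate in both comparisons, with medians of -0.11 and -0.19. The 20 other mitophagy genes tested had 12 positive and 8 negative estimates with a median of 0.02 with all 6 libraries, and 10 of each sign with a median of -0.01 without the library labelled Ctrl replicate 4. Among the 9 genes, scaling by library size turned Bnip3l and Mfn1 positive in both comparisons. The slow-twitch marker sum was also lower in both LSD1skm-/- libraries than in Ctrl, and its part in these estimates was not tested. Mfn2, which encodes mitofusin 2, a fusion protein of the outer mitochondrial membrane, had the lowest estimate. Mfn2 was at 403, 497, 453 and 360 CPM in Ctrl replicates 1 to 4 and at 348 and 340 CPM in LSD1skm-/-. Both LSD1skm-/- values were below all 4 Ctrl values, with the library labelled Ctrl replicate 4 next to them. On the log2 scale the fold change was -0.32 ± 0.15 (SE, adjusted p = 0.558, edgeR) and, without that library, -0.39 ± 0.12 (adjusted p = 0.120). Its homologue Mfn1 was at 235, 228, 212 and 197 CPM in Ctrl and at 218 and 215 CPM in LSD1skm-/-, and its groups overlapped. The log2 fold change of Mfn1 was -0.01 ± 0.11 (SE, adjusted p = 0.978, edgeR) and, without the library labelled Ctrl replicate 4, -0.06 ± 0.10 (adjusted p = 0.797).

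Of the membrane receptors that recruit LC3 to mitochondria directly, Fundc1 was the one positive estimate of the step. Fundc1 was at 19.4, 20.6, 22.2 and 21.9 CPM in Ctrl and at 23.3 and 25.7 CPM in LSD1skm-/-, above all 4, with a log2 fold change of 0.22 ± 0.11 (SE, adjusted p = 0.565, edgeR) and of 0.24 ± 0.11 (adjusted p = 0.285) without the library labelled Ctrl replicate 4. Bnip3, a hypoxia-responsive receptor, was at 105, 74.8, 91.2 and 54.6 CPM in Ctrl and at 70.6 and 78.7 CPM in LSD1skm-/-. The Ctrl libraries spread widely around the LSD1skm-/- values, and the log2 fold change of Bnip3 was -0.13 ± 0.24 (SE, adjusted p = 0.868, edgeR) and, without the library labelled Ctrl replicate 4, -0.28 ± 0.15 (adjusted p = 0.373). Bnip3 shares 62.5% of its 50-base words with other genes and Bnip3l, its homologue, 25.1%, so both levels are uncertain.

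Pink1 encodes a kinase that marks depolarised mitochondria, and Usp15 and Usp30 encode deubiquitinases that oppose mitophagy. Pink1 had the highest level per kilobase of the step, at 283 CPM in Ctrl, with Mfn2 next at 98.6. Pink1 ranged from 546 to 812 CPM in Ctrl and was 631 and 624 CPM in LSD1skm-/-, so the groups overlapped, with log2 fold changes of -0.10 with all 6 libraries and -0.19 without the library labelled Ctrl replicate 4. Usp15 was at 183, 185 and 184 CPM in Ctrl replicates 1 to 3, at 146 CPM in the library labelled Ctrl replicate 4, and at 171 and 150 CPM in LSD1skm-/-. Ctrl replicates 1 to 3 were nearly alike and the library labelled replicate 4 was the lowest of all 6. The log2 fold change of Usp15 was -0.12 ± 0.13 (SE, adjusted p = 0.773, edgeR) and, without that library, -0.19 ± 0.10 (adjusted p = 0.347).

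At the lysosome the 6 genes were divided evenly, with 3 positive and 3 negative estimates in both comparisons. Ctsb lies on chromosome 14 (GRCm38, 63122462 to 63145923, plus strand). Ctsb was at 295, 282 and 257 CPM in Ctrl replicates 1 to 3, at 395 CPM in the library labelled Ctrl replicate 4, and at 366 and 426 CPM in LSD1skm-/-. The library labelled Ctrl replicate 4 lay between the LSD1skm-/- libraries, so the groups overlapped with it and separated without it. Its log2 fold change was 0.37 ± 0.18 (SE, adjusted p = 0.565, edgeR) with all 6 libraries and 0.51 ± 0.11 (adjusted p = 0.0466, edgeR) without that library, and it did not pass the adjusted threshold when any further library was left out or with DESeq2's size factors in place of TMM (adjusted p = 0.0514). Of its 50-base words 15.4% occur in other genes, mostly in Fdft1, which overlaps it on the opposite strand. The fibroblast, blood and satellite cell marker sums given above were also higher in the libraries with high Ctsb, and their part in its level was not tested. The part of macrophages was not tested either.

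The other cathepsin genes of the 48 had smaller estimates. Ctsl, a cathepsin known to be induced in muscle atrophy, was at 91.9, 87.8, 105 and 87.0 CPM in Ctrl and at 91.2 and 120 CPM in LSD1skm-/-, with overlap and only replicate 2 of LSD1skm-/- above Ctrl. Its log2 fold change was 0.19 ± 0.14 (SE, adjusted p = 0.678, edgeR) with all 6 libraries and 0.16 ± 0.15 (adjusted p = 0.597) without the library labelled Ctrl replicate 4. Ctsd, which encodes the aspartic protease cathepsin D, ranged from 298 to 363 CPM in Ctrl and was 293 and 324 CPM in LSD1skm-/-, with log2 fold changes of -0.10 and, without that library, -0.15. Because 36.6% of the 50-base words of Ctsd and 28.1% of those of Ctsl occur in other genes, these levels are uncertain.

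Lamp1 and Lamp2, the main glycoproteins of the lysosomal membrane, had estimates of opposite sign. Lamp1 was at 463, 459 and 471 CPM in Ctrl replicates 1 to 3, at 370 CPM in the library labelled Ctrl replicate 4, and at 396 and 425 CPM in LSD1skm-/-, with a log2 fold change of -0.10 with all 6 libraries and of -0.18 (adjusted p = 0.365, edgeR) without that library. Lamp2 was at 71.3 to 88.2 CPM in Ctrl and at 94.3 and 87.8 CPM in LSD1skm-/-, with log2 fold changes of 0.17 and 0.21 (adjusted p = 0.353, edgeR). Tfeb, the transcription factor that drives many lysosomal and autophagy genes, was at 58.6 to 86.2 CPM in Ctrl and at 61.8 and 68.8 CPM in LSD1skm-/-, with log2 fold changes of -0.17 and -0.26 (adjusted p = 0.268, edgeR). Lamp1 had the highest level per kilobase of the step, at 198 CPM in Ctrl, and Ctsd followed at 156.

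Around the 48 genes, 109 other genes of the same routes were tested, from nutrient sensing to fusion and the lysosome. With all 6 libraries 6 had an unadjusted p under 0.05 by edgeR's quasi-likelihood test, 5 higher and 1 lower, against 8.9% of all genes, and 0 an adjusted one. In the 5 libraries other than that labelled Ctrl replicate 4 there were 14, 11 higher and 3 lower, against 20.2% of all genes, and 4 of the 109 passed the adjusted threshold, against 5.39% of all genes. All 4 were higher, as were 496 of the 612 genes called in all, and all 4 belong to the 40 other lysosomal genes tested. The 4 were Ctsf, Ctsh and Ctso, which encode cysteine cathepsins like cathepsin B, and Lgmn, which encodes legumain, the protease that processes cathepsins.

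Lgmn was at 31.05, 28.9 and 27.4 CPM in Ctrl replicates 1 to 3, at 42.8 CPM in the library labelled Ctrl replicate 4, and at 42.4 and 50.8 CPM in LSD1skm-/-, with log2 fold changes of 0.52 with all 6 libraries and 0.68 ± 0.12 (SE, adjusted p = 0.0187, edgeR) without that library. Ctsh was at 6.38 to 8.45 CPM in Ctrl replicates 1 to 3, at 10.97 CPM in the library labelled replicate 4, and at 11.6 and 12.6 CPM in LSD1skm-/-, with log2 fold changes of 0.55 and 0.73 (adjusted p = 0.0353, edgeR). Ctso and Ctsf had log2 fold changes of 0.55 and 0.37 with all 6 libraries, and of 0.70 (adjusted p = 0.0398) and 0.47 (adjusted p = 0.0378) without that library by edgeR. In each of these 4 genes, as in Ctsb, the library labelled Ctrl replicate 4 was above the other Ctrl libraries. The fibroblast, blood and satellite cell marker sums were also higher in these libraries, and their part and that of macrophages were not tested.

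**Figure D4:**
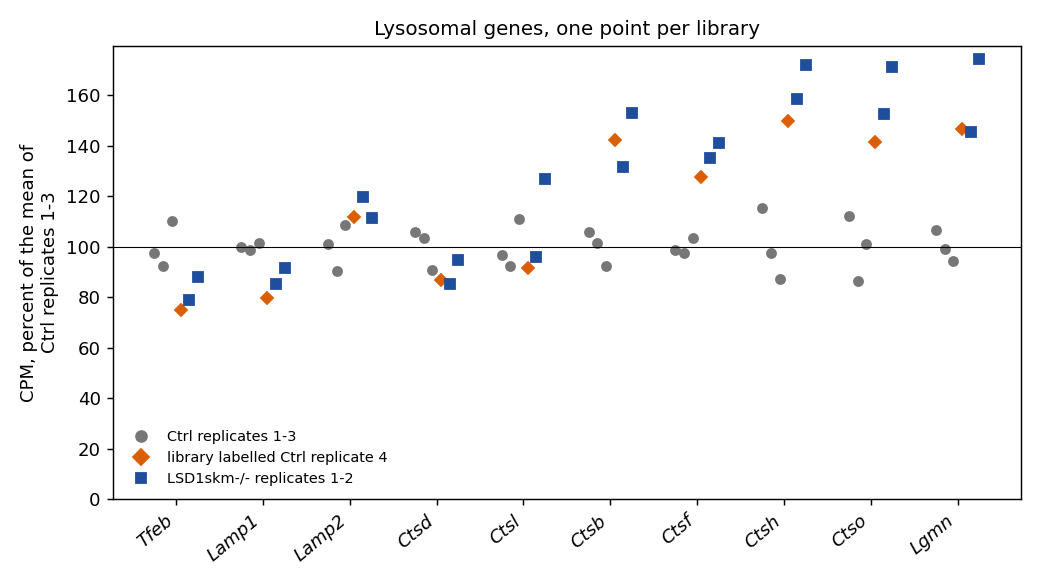
CPM of the 6 lysosomal genes of the 48 and of Ctsf, Ctsh, Ctso and Lgmn as a percentage of the mean of Ctrl replicates 1 to 3 (y axis, percent), with a point for each library, grey circles for Ctrl replicates 1 to 3, an orange diamond for the library labelled Ctrl replicate 4 and blue squares for LSD1skm-/-. Ctsb stands at 142% in the library labelled Ctrl replicate 4 and at 132% and 153% in LSD1skm-/-, and in the 4 genes to its right these 3 libraries also stand above Ctrl replicates 1 to 3.

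Promoter sequence was read for the genes present in the RefSeq promoter table of GRCm38.p6, which holds 250 bases before and 50 after each start. It matched 39 of the 48 genes with 46 windows, and Rb1cc1, Becn1, Pik3c3, Atg12, Atg16l1, Map1lc3a, Bnip3l and Ctsb were among those not matched. The windows were searched on both strands for CACGTG, the E-box core, for TCACGTGA, an extended form of it that TFEB is known to bind and that contains the core, and for GCATGCGC, part of the element of the transcription factor NRF1. CACGTG was in 8 of 46 windows (17.4%), those of Atg14, Atg3, Atg5, Atg7, Bnip3, Ctsd, Ctsl and Lamp1, against 7.15% of 32851 windows of all genes. TCACGTGA was in 2 windows (4.35%, Atg3 and Ctsd) against 0.974% of all, and GCATGCGC was in 3 (6.52%, Atg10, Tax1bp1 and Wipi2) against 2.71%.

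The 100 bases before the start are shown for Lamp1 (chr8:13159061-13159160, plus strand), whose window held 4 E-boxes, for Ctsd (chr7:142387828-142387927, minus strand), which held the extended form, and for Tax1bp1 (chr6:52713629-52713728, plus strand), the cargo receptor with the NRF1 letters. They are written 5′ to 3′ with the matched letters in capitals, from RefSeq on GRCm38.p6, and a match is a description of the letters only.
Lamp1: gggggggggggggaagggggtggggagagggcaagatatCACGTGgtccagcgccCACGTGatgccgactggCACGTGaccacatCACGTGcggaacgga
Ctsd: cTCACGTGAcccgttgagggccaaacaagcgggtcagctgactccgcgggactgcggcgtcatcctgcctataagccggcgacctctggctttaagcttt
Tax1bp1: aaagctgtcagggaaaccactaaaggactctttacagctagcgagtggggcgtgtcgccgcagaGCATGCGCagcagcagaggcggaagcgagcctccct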

How the data were processed

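Whole-number counts per gene for 4 Ctrl and 2 LSD1skm-/- libraries were deposited by the authors, made from stranded poly(A) libraries on mm10. The study's methods name htseq-count and HOMER for mapping and quantification and keep uniquely aligned reads. The aligner, the annotation and the strand setting of the counting are not given in the sources used here. LSD1skm-/- replicates 3 and 4 are not analysed here, so the planned comparison of 4 against 4 became 4 against 2. All columns belonged to labelled samples, with 0 outside them. Genes with a mean above 50 counts were tested with edgeR 4.0.16 (TMM, quasi-likelihood test, Benjamini-Hochberg adjustment) in R 4.3.3, with LSD1skm-/- against Ctrl and no other term, and DESeq2 1.42.0 was an alternative. On simulated data with 200 genes changed 2-fold among 11364 genes, the test called 149 of them with 4 against 2 libraries, beside 19 false calls, and 162 with 3 against 2, beside 21. Both runs took their spread from the libraries other than that labelled Ctrl replicate 4, and every simulated Ctrl library was a true control. They therefore do not show what the real comparison of 4 against 2 would recover. The changes were also larger than the highest fold of the 48 genes (1.74, Map1lc3a, without that library).

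The 48 genes, the 109 others and the marker lists were chosen with earlier results of these data known. The values of 1 of the 48 are not reported here, though counts and medians include it. Values for each library are given for genes with an unadjusted p under 0.05 in either comparison, for Becn1, Bnip3, Ulk2, Mfn1, Nbr1, Usp15, Ctsl and Gabarapl1, and for at most 5 of the 109 others with an adjusted p under 0.05 in either comparison. The highest level per length is given for each step, as the mean of Ctrl. Further members given with values (Atg3, Atg5, Atg9a, Gabarap, Gabarapl2, Fundc1, Pink1, Lamp1, Lamp2, Ctsd, Tfeb) were added after their values were seen. Leaving out further libraries beside the one labelled Ctrl replicate 4, and the scalings without it, were also chosen after seeing the data. Lengths and positions are from GENCODE vM21 (GRCm38). No library pair agreed within sampling noise (chi-square divided by its degrees of freedom, 32.9 to 127).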

Additional observations from a re-analysis of the deposited data

Results flagged for a closer look

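In the Ctrl group, 5 of 53 genes examined had a library set apart from the others, by Dixon's test on the gap to the nearest library as a share of the group's range of log2 CPM, which chance gives for about 1 in 20 groups. Kdm1a (0.879), Usp15 (0.959) and Lamp1 (0.897) were lowest in the library labelled Ctrl replicate 4. Wipi1 (0.881) was lowest and Usp30 (0.888) highest in Ctrl replicate 3.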

How the results depend on the processing

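With all 6 libraries, 2 of the 48 genes (Map1lc3a and Uvrag) had an unadjusted p under 0.05 by edgeR. There were 4 with DESeq2 or upper-quartile scaling and 6 when every gene with at least 1 count was tested. With a Ctrl library left out there were 1 (Map1lc3a, without Ctrl replicate 1 or Ctrl replicate 3) to 8 (without the library labelled Ctrl replicate 4). Leaving out LSD1skm-/- replicate 2 took the log2 fold change of Map1lc3a from 0.65 to 0.46 and that of Uvrag from -0.35 to -0.30. The count at an adjusted p under 0.05 was 0, or 1 (Map1lc3a, adjusted p = 0.0332, edgeR) with the replicate block, and 0 to 2 with a library left out, 2 being without the library labelled Ctrl replicate 4. The count past the fold cutoffs was 1, or 3 with the replicate block, and 1 to 5 with a library left out (2 without Ctrl replicate 2 and 5 without the library labelled Ctrl replicate 4). The deviations of libraries with the same number correlated at -0.233 and -0.0334. With 2 LSD1skm-/- libraries their deviations mirror each other, so these values cannot decide whether equal numbers mark a pairing. The labels give only the number. Over all genes the replicate block gave 632 adjusted calls and the test of every gene 149, against 0. The block gave each replicate number its own term, and replicates 3 and 4 were present only in Ctrl. Those libraries, among them the Ctrl library with low Kdm1a, were then fitted exactly and added nothing to the group difference. All counts with the block therefore rest on replicates 1 and 2 of each group, not on all 6 libraries. Without the library labelled Ctrl replicate 4 the 8 genes became 4 without LSD1skm-/- replicate 2 and 13 without LSD1skm-/- replicate 1. The 2 adjusted calls became 6 with DESeq2, 1 with DESeq2's size factors, and 0 (without LSD1skm-/- replicate 2) to 1 (without any other) with a further library left out. The 5 past the fold cutoffs became 3 with library size scaling and 4 to 10 with a further library left out, 10 being without LSD1skm-/- replicate 1. Log2 fold changes changed sign for Becn1 (-0.11 to 0.003438), Gabarapl1 (-0.14 to 0.28), Bnip3 (-0.28 to 0.023), Mfn1 (-0.055 to 0.027) and Ctsl (-0.027 to 0.37) when single libraries were left out, and for Mfn1 (0.029) with library size scaling. The cause was not tested. Ctsf and Ctso did not pass the adjusted threshold when any further library was left out, Ctsh in 4 of 5 and Lgmn in 2 of 5 such cases.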
